A study of Mus musculus with 18 samples.

Results

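Samhd1, Rnaseh2a, Rnaseh2b, Rnaseh2c, Adar, Dnase2a, Dnase1l3, Pld3 and Pld4 encode enzymes, other than the exonuclease TREX1, that remove or edit the cell's own DNA and RNA. These 9 genes were chosen by symbol, and all 9 were listed in both deposited tables, among 21830 genes for spleen and 14423 for bone marrow. None of them passed the authors' DESeq2 test in either tissue. RNA was measured with QuantSeq, a 3' mRNA method that gives tags from the polyadenylated end of a transcript. A count therefore does not scale with transcript length. Levels compared between genes still rest on how tags were assigned to each gene, which is not given.

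The mice were C57BL/6. The spleens came from lethally irradiated dKO mice, 12 weeks after they received Cgas-/- marrow (5 libraries) or dKO marrow (5 libraries). Both groups of recipients were thus dKO (Trex1-/-;Sting1gt/gt), lacking TREX1 and functional STING in the cells of the host. The bone marrow came from untransplanted Cgas-/- mice (4 libraries), which lack the DNA sensor cGAS, and from dKO mice (4 libraries), so every group carried at least 1 mutation of the cytosolic DNA pathway and no wild-type group was compared. The share of host cells left in the spleens, the ages and whether each library was from another mouse are not given here, so p-values reflect how far these particular samples spread, which may be in part technical. Fold changes are Cgas-/- marrow over dKO marrow in spleen, and Cgas-/- over dKO in bone marrow.

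TREX1 belongs to a set of enzymes whose loss lets the cell's own nucleic acids set off the sensors meant for viruses. In people, inherited defects of TREX1, SAMHD1, any RNase H2 subunit or ADAR cause Aicardi-Goutières syndrome, an inflammatory disease with constant type I interferon signalling. The lysosome and the extracellular space have their own enzymes: DNase II and DNASE1L3 cut double-stranded DNA, and PLD3 and PLD4 shorten single-stranded DNA and RNA from the 5' end before Toll-like receptors can read them.

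The genotypes were checked on the targeted genes. In the authors' deposited tables Trex1 had a log2 fold change of 2.71 ± 0.199 in spleen (standard error, as throughout) and 1.45 ± 0.178 in bone marrow. Cgas, listed for spleen under its older symbol Mb21d1, was at -0.92 ± 0.217 in spleen and -1.13 ± 0.155 in bone marrow in the authors' deposited tables, and all 4 values passed an adjusted p of 0.05. With Student's t in place of the normal distribution only Trex1 in spleen passed (adjusted p = 0.00348). The Cgas value in bone marrow leaves the Cgas-/- level at 0.458-fold that of dKO mice. Sting1, listed as Tmem173, was at -0.02 ± 0.0751 in spleen and -0.13 ± 0.176 in bone marrow in the authors' deposited tables, neither past the test, so these values do not check the Sting1gt/gt part of the genotype. Markers of the labelled tissues were present. In the authors' deposited table for spleen the B cell gene Ms4a1 had a mean of 3476 and the T cell gene Cd3e one of 302, and in that for bone marrow the granulocyte precursor gene Mpo had 11486 and Elane 2148. The unit is the mean normalized count, averaged by the authors over all libraries of a tissue.

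Promoter sequences are shown for the 4 windows of these genes that hold a core motif of interferon-regulated promoters, since 9 of 58 interferon-stimulated genes fell in bone marrow, as described below, and Samhd1 and Adar are known targets of interferon. RefSeq promoter windows on GRCm38.p6, from 250 bases before to 50 after an annotated start, were available for 7 of the 9 genes, 9 windows in all. Capitals mark, in Pld3, the core of the interferon-stimulated response element (ISRE), written as GAAA, any 2 bases and GAAA, and in the others the core of the gamma-activated site (GAS), TTCNNNGAA, both searched on both strands. Each window holds only 1 of these motifs, so they do not overlap.
Samhd1, minus strand, chr2:157135047-157135346: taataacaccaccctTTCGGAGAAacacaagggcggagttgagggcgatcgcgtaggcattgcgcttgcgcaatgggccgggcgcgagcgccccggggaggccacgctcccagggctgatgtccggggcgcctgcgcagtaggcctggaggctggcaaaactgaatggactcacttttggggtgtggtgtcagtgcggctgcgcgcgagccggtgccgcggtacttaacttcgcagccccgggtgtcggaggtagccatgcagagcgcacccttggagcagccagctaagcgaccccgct
Adar, plus strand, chr3:89730468-89730767: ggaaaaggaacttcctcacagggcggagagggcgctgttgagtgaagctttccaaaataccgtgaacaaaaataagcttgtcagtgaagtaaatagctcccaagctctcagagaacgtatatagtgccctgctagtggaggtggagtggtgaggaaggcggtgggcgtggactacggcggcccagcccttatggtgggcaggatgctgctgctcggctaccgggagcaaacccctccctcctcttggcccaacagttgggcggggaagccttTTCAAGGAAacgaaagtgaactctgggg
Pld3, minus strand, chr7:27553169-27553468: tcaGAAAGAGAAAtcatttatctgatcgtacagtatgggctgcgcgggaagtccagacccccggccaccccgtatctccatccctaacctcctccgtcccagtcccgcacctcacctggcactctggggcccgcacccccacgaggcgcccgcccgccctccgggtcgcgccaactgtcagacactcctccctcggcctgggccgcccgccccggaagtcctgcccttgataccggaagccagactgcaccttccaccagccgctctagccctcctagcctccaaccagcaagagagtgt
Rnaseh2a, minus strand, chr8:84966027-84966326: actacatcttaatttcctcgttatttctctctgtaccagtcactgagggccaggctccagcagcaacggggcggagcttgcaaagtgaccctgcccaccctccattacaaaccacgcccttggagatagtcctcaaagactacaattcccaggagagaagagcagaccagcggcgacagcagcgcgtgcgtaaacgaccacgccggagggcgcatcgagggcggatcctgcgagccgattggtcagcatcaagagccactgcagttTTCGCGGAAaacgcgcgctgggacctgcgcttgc

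The ISRE letters were found in 1 of the 9 windows, that of Pld3, against 3.44% of the 32851 RefSeq windows of this length. For scale, 21 of the 43 listed interferon-stimulated genes with a window held them (48.8%). The GAS letters were found in 3 of the 9 windows, against 8.30% of all windows. Adar has 3 annotated starts with a window each, and only the one printed held either motif. Near matches were not counted in any window, so that named next has no share over all windows beside it. That window of Adar holds GAAAGTGAAC after its GAS letters, which departs from the ISRE letters only in its last base. A match of letters describes the window and shows no site in use. Of the other 6 motifs searched on both strands, the GC box GGGCGG was in 7 of the 9 windows (35.66% of all windows), CACCC in 6 (57.52%), the PU box GAGGAAG in 2 (13.63%) and GATAA in 1 (25.41%), and neither TATAA (24.87%) nor the E-box CACGTG (7.15%) was in any.

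Across the set, the changes were small in both tissues. Of the 9 genes, 0 passed the authors' DESeq2 adjusted p of 0.05 in spleen, where 0.133% of all genes passed (0.055% higher and 0.0779% lower), and 0 passed in bone marrow, where 0.534% passed (0.173% higher and 0.361% lower). The adjusted p in spleen was 0.999997 for each of the 9 genes in the authors' deposited table. Before adjustment, 0 of the 9 genes had a p under 0.05 in spleen (3.02% of all genes did) and 1, Samhd1, had one in bone marrow (8.85% of all genes did). The log2 fold changes lay between -0.34 and 0.05 in spleen, with a median of -0.03, and between -0.16 and 0.15 in bone marrow, with a median of -0.08, in the authors' deposited tables. Values below 0 were listed for 7 of the 9 genes in spleen, against 55.0% of all genes, and for 5 of the 9 in bone marrow, against 50.5%. The medians over all genes were -0.03 in spleen and -0.00 in bone marrow. Over genes with a mean of at least 20, which all 9 genes reach, they were 0.006 and -0.003. Without regard to sign, the median change of the set was 0.0451 in spleen and 0.118 in bone marrow, against 0.0869 and 0.124 for all genes with a mean of at least 20. Median standard errors of the set were 0.0947 and 0.120, against 0.139 and 0.166 for those genes. Neither comparison was matched for level. Each standard error was also set against the median for genes within 1.5-fold of that gene's level. In bone marrow it was larger for Rnaseh2a, Dnase2a, Dnase1l3, Pld3 and Pld4 and smaller for the rest. In spleen it was larger for Rnaseh2b and Adar and smaller for the rest.

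Levels spanned a wide range within the set. In the authors' deposited tables Samhd1 had the highest mean normalized count in both tissues, above 99.3% of the 13853 genes listed for both in spleen and above 98.0% in bone marrow. The lowest was Rnaseh2a in spleen, with a mean of 103, and Dnase1l3 in bone marrow, with 27.6. The tables hold no value per library, so the 2 group means that the mean and the fold change imply with groups of equal size are given below, called implied means.

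**Figure D1:**
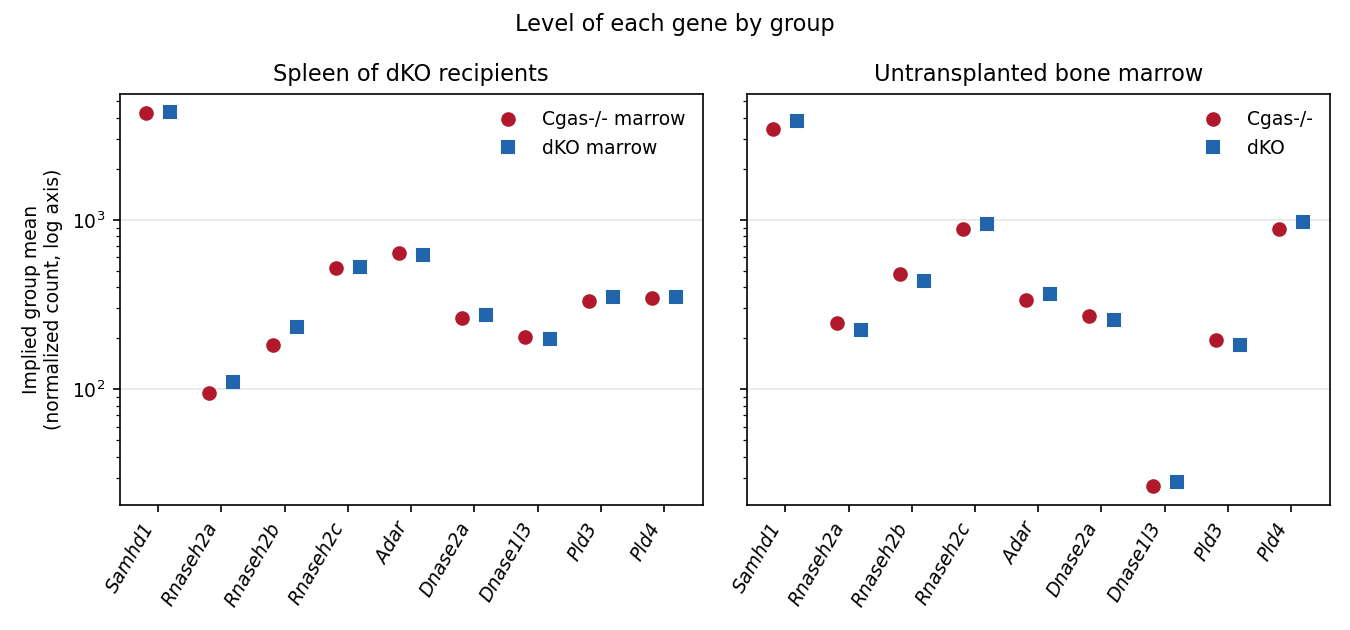
Implied group mean of each gene in normalized counts (log axis), with circles for Cgas-/- marrow or Cgas-/- mice and squares for dKO, spleen on the left and bone marrow on the right. The means of the 2 groups lie close together for every gene, while the genes range from 26.8 to 4320 normalized counts.

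Samhd1 encodes a hydrolase that destroys deoxynucleoside triphosphates, the building blocks of DNA, and so limits DNA synthesis in resting myeloid cells. In spleen its implied mean was 4274 with Cgas-/- marrow and 4320 with dKO marrow, a log2 fold change of -0.02 ± 0.0813 in the authors' deposited table. The 95% interval there runs from 0.886-fold to 1.10-fold. In bone marrow the implied mean was 3446 in Cgas-/- and 3846 in dKO mice, with -0.16 ± 0.0681 in the authors' deposited table (unadjusted p = 0.0200, adjusted p = 0.408 by DESeq2). That interval, 0.817-fold to 0.983-fold, lies below 1 but before any adjustment for the number of genes, and 4.90% of the genes of that table had a larger Wald statistic in either direction.

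Values of other gene groups stood beside that of Samhd1 in bone marrow. Of 58 interferon-stimulated genes, 55 were below 0 there and 9 passed lower in the authors' deposited table, with a median of -0.34. Oas2, an activator of RNase L, was at -1.20 ± 0.253 (adjusted p = 0.00142 by DESeq2) and Rtp4, an interferon-induced chaperone of receptors, at -0.92 ± 0.195 in the authors' deposited table. Of 16 monocyte markers, 4 passed lower and none higher, with a median of -0.32 and summed implied means of 36562 in Cgas-/- and 42937 in dKO marrow. Ly6c2, a surface protein of classical monocytes, was at -0.33 ± 0.0794 and Ms4a4c at -0.60 ± 0.150 in the authors' deposited table. The lowest mean of a monocyte marker was 26.5, and fewer cells of a type cannot be told apart from less RNA per cell in such samples. With Student's t in place of the normal distribution, 0 of the 9 interferon-stimulated and 0 of the 4 monocyte calls passed, nor did any call in bone marrow given below for another list (smallest adjusted p = 0.986). The part of either group in the value of Samhd1 was not tested.

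RNase H2 is a trimer that cuts RNA in RNA-DNA hybrids and removes single ribonucleotides from DNA. RNASEH2A carries the active site, and RNASEH2B and RNASEH2C are the scaffold it needs. The order of their levels was the same in both tissues, Rnaseh2c above Rnaseh2b above Rnaseh2a, as mean normalized counts in the authors' deposited tables. Rnaseh2c exceeded Rnaseh2a 5.08-fold in spleen and 3.88-fold in bone marrow, and Rnaseh2b exceeded Rnaseh2a 2.02-fold and 1.95-fold.

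Rnaseh2b gave the largest change of the set in spleen, with an implied mean of 183 with Cgas-/- marrow and 232 with dKO marrow. Its log2 fold change of -0.34 ± 0.177 did not pass in the authors' deposited table (unadjusted p = 0.0556), and its interval runs from 0.621-fold to 1.01-fold. The standard error of Rnaseh2b in spleen was above the median of 0.119 for the 2576 genes within 1.5-fold of its level. In bone marrow its implied mean was 482 in Cgas-/- and 434 in dKO mice, at 0.15 ± 0.108 in the authors' deposited table (adjusted p = 0.794 by DESeq2).

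Rnaseh2a had the same signs. In spleen its implied mean was 95.3 with Cgas-/- marrow and 110 with dKO marrow, at -0.21 ± 0.138 in the authors' deposited table, and in bone marrow 245 in Cgas-/- and 225 in dKO mice, at 0.12 ± 0.159 (adjusted p = 0.932 by DESeq2). Rnaseh2c had the smallest change of the 3 subunits in spleen, with implied means of 517 with Cgas-/- marrow and 528 with dKO marrow. Its log2 fold change was -0.03 ± 0.0824 there and -0.12 ± 0.0893 in bone marrow in the authors' deposited tables, where its implied mean was 877 in Cgas-/- and 949 in dKO mice, and its intervals were 0.875-fold to 1.09-fold in spleen and 0.818-fold to 1.04-fold in bone marrow.

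Markers of erythroid and proliferating cells are given beside these values. Of 19 erythroid markers, all 19 were below 0 in spleen, with a median of -0.69, none past the DESeq2 test and 4 lower at an unadjusted p under 0.05 in the authors' deposited table. In bone marrow 18 were above 0, with a median of 0.32, and Hbb-bt, an adult beta-globin gene with near-identical copies, passed at 0.84 ± 0.223. Summed implied means of the erythroid markers were 18020 with Cgas-/- marrow and 26445 with dKO marrow in spleen, and 66918 in Cgas-/- and 37224 in dKO bone marrow. Of 26 cell cycle genes, 22 were below 0 in spleen (median -0.12) and 16 in bone marrow (median -0.01), and none passed in either tissue in the authors' deposited tables. Tpx2, a spindle assembly factor, had -0.47 ± 0.236 in spleen, and Mcm7, a subunit of the replicative helicase, 0.24 ± 0.0770 in bone marrow in the authors' deposited tables, neither past the test. The part of these cells in the RNase H2 values was not tested.

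Adar encodes the enzyme that turns adenosine into inosine in double-stranded RNA, which keeps the cell's own RNA from activating the sensor MDA5. Its implied mean in spleen was 637 with Cgas-/- marrow and 620 with dKO marrow, a log2 fold change of 0.04 ± 0.0947 in the authors' deposited table. In bone marrow it was 337 in Cgas-/- and 366 in dKO mice, at -0.12 ± 0.115 in the authors' deposited table (adjusted p = 0.882 by DESeq2). The intervals, 0.903-fold to 1.17-fold and 0.788-fold to 1.08-fold, both include 1. An interferon-inducible and a constitutive promoter are known for Adar, and 3' tags do not tell their transcripts apart.

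Dnase2a encodes DNase II, the acid endonuclease with which macrophages digest engulfed DNA, including the nuclei that red cell precursors expel. Its implied mean was 264 with Cgas-/- marrow and 273 with dKO marrow in spleen, and 269 in Cgas-/- and 258 in dKO bone marrow. The log2 fold changes were -0.05 ± 0.0968 in spleen and 0.06 ± 0.151 in bone marrow in the authors' deposited tables, with intervals of 0.850-fold to 1.11-fold and 0.850-fold to 1.28-fold.

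Dnase1l3 encodes a secreted nuclease of macrophages and dendritic cells that digests chromatin released by dying cells. In spleen its implied mean was 203 with Cgas-/- marrow and 197 with dKO marrow, at 0.05 ± 0.119 in the authors' deposited table. In bone marrow it was 26.8 in Cgas-/- and 28.4 in dKO mice, at -0.08 ± 0.430 in the authors' deposited table, with an interval of 0.527-fold to 1.69-fold, the widest of the set. Dnase2a stood 1.34-fold above Dnase1l3 in spleen and 9.55-fold above it in bone marrow, as mean normalized counts.

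Markers of macrophages, which express both DNases, were read beside them. In spleen 16 of 17 were below 0, with a median of -0.16, and none passed, while in bone marrow 7 of 15 were below 0 and Csf1r, the receptor that macrophages need to survive, passed at -0.37 ± 0.0988 (adjusted p = 0.0356 by DESeq2) in the authors' deposited tables. Csf1r is also on the monocyte list. Summed implied means were 4545 with Cgas-/- marrow and 5100 with dKO marrow in spleen, and 5163 in Cgas-/- and 5452 in dKO bone marrow. The smallest mean of any listed gene was 0.239 in spleen and 6.46 in bone marrow, so no listed marker could be at 0. In bone marrow 2 of the 17 macrophage markers are not listed. Conventional dendritic cell markers were centred at -0.01 in spleen and 0.10 in bone marrow, where Flt3, a cytokine receptor gene also active in progenitors, passed at 0.72 ± 0.153 in the authors' deposited table. Their part in the values of the DNases was not tested.

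Pld3 and Pld4 encode the endolysosomal 5' exonucleases, PLD3 in many cell types and PLD4 mainly in B cells and plasmacytoid dendritic cells among others. Pld3 had implied means of 330 with Cgas-/- marrow and 350 with dKO marrow in spleen, and 196 in Cgas-/- and 181 in dKO bone marrow. Its log2 fold changes were -0.08 ± 0.0910 in spleen and 0.11 ± 0.182 in bone marrow in the authors' deposited tables (adjusted p = 0.947 in bone marrow, by DESeq2). Pld4 had 345 with Cgas-/- marrow and 351 with dKO marrow in spleen, and 886 in Cgas-/- and 971 in dKO bone marrow, at -0.03 ± 0.0902 and -0.13 ± 0.120 in the authors' deposited tables (adjusted p = 0.872 in bone marrow, by DESeq2).

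The balance of these exonuclease genes differed in level. Pld4 was 1.02-fold Pld3 in spleen and 4.93-fold in bone marrow, as mean normalized counts in the authors' deposited tables, with no test of that difference. Markers of plasmacytoid dendritic cells had medians of -0.24 in spleen and 0.02 in bone marrow, and those of B cells 0.01 and 0.05, with none of the 14 and 12 genes past the test in either tissue in the authors' deposited tables. At an unadjusted p under 0.05, 3 plasmacytoid markers were higher in bone marrow and 1 B cell marker lower in spleen. Of the remaining marker lists, medians were 0.11 in spleen and 0.27 in bone marrow for B cell progenitors, 0.08 and 0.05 for T cells, -0.15 and -0.13 for plasma cells and -0.39 and -0.08 for neutrophils. The gene past the test among them was Dntt, the polymerase that adds bases to antigen receptor joints, at 0.64 ± 0.166 in bone marrow (adjusted p = 0.0311 by DESeq2) in the authors' deposited table. The part of any of these cells in the values of Pld3 and Pld4 was not tested.

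**Figure D2:**
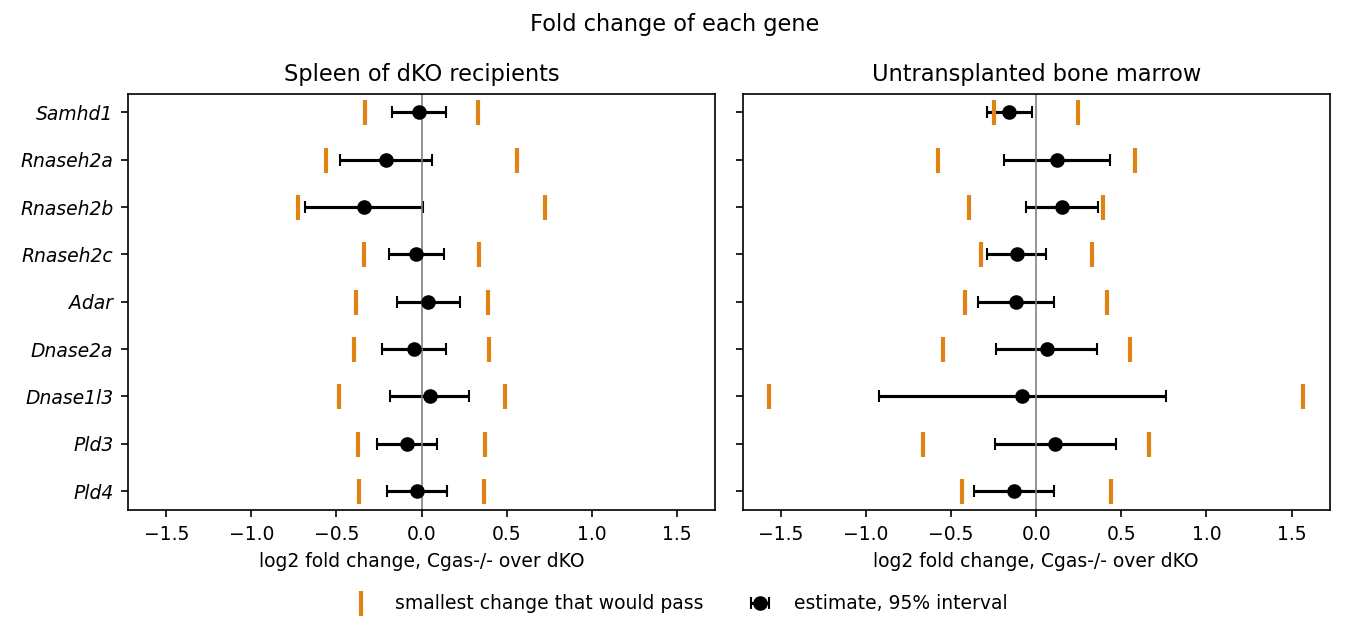
The log2 fold change of each gene (x axis) with its 95% normal interval, spleen on the left and bone marrow on the right. Orange ticks mark the change that would have reached the weakest Wald statistic called in that table, and all 18 estimates lie inside them, with the widest interval that of Dnase1l3 in bone marrow.

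The standard errors set what could have been seen. The largest p called in the authors' deposited tables was 4.21e-05 in spleen and 2.67e-04 in bone marrow. A gene at that p had a change of about 4.10 and 3.65 standard errors. For Samhd1 that is 1.26-fold in spleen and 1.19-fold in bone marrow, and for Rnaseh2b 1.66-fold and 1.31-fold. For Dnase1l3 in bone marrow it is a 2.96-fold change. Somewhat smaller changes could have passed, since the Benjamini-Hochberg limit can lie above the largest called p. In each tissue the 95% interval of 8 of the 9 genes lay within 1.5-fold of no change, with Rnaseh2b the exception in spleen and Dnase1l3 in bone marrow. A p that misses the threshold does not show that the groups were alike, and these intervals give the changes still possible.

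The effects in the 2 tissues were compared directly, by subtracting the log2 fold change in bone marrow from that in spleen and dividing by the joint standard error, for the 13853 genes listed in both. Adjusted over those genes, 0 of the 9 differed (0.0577% of all genes did). The largest difference was that of Rnaseh2b, -0.49 ± 0.208, with an interval of -0.90 to -0.08, which did not pass (unadjusted p = 0.0179, adjusted p = 0.933, normal test). Rnaseh2a followed at -0.33 ± 0.210 (adjusted p = 0.999). Differences of the other 7 genes lay between -0.20 ± 0.204 for Pld3 and 0.16 ± 0.149 for Adar, with every interval including 0, that of Samhd1 running from -0.07 to 0.35. A difference at an unadjusted p under 0.05 was found for 1 of the 9, against 4.83% of all genes. The signs were opposite in the 2 tissues for 6 of the 9 genes, against 48.5% of all genes.

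**Figure D3:**
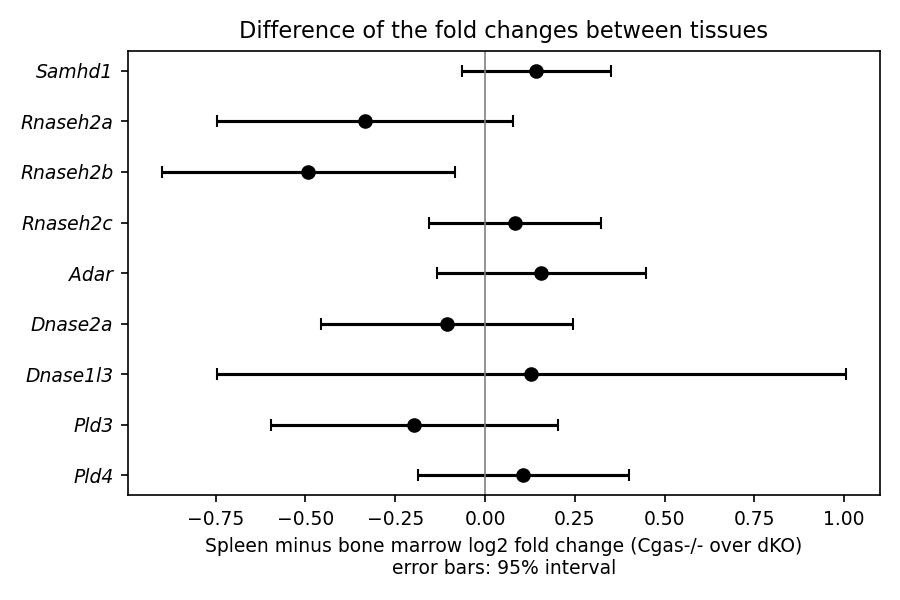
Spleen minus bone marrow difference of the log2 fold change (x axis) for each gene, with 95% normal intervals. Rnaseh2b is lowest at -0.49 and is the gene whose unadjusted interval lies below 0, and Dnase1l3 has the widest interval.

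Other enzymes with related tasks were read from fixed lists. Of 26 other DNA nucleases, 24 were listed in spleen and 22 in bone marrow, and none passed in either direction in the authors' deposited tables. Their medians were -0.03 and 0.04. The smallest p was that of Ercc1, a subunit of a repair endonuclease, in spleen at 0.40 ± 0.182, and of Apex1, the main abasic site endonuclease, in bone marrow at 0.48 ± 0.187, neither past the test (adjusted p = 0.313 for Apex1 by DESeq2). Of 27 other RNA nucleases and deaminases, 26 and 25 were listed and none passed, with medians of 0.06 and -0.01. Adarb1, a second RNA editor, was at -0.87 ± 0.432 in spleen with a mean of only 11.9. Rnaset2a, a lysosomal RNase with a near-identical copy that makes its count uncertain, was at -0.23 ± 0.0973 in bone marrow in the authors' deposited table.

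Enzymes of deoxynucleotide supply and turnover were read beside SAMHD1, and not all of them act opposite to it. None of the 16 passed in either tissue in the authors' deposited tables, with medians of -0.01 in spleen and 0.06 in bone marrow. Tyms, thymidylate synthase, had -0.35 ± 0.212 in spleen, and Dut, which removes dUTP, 0.23 ± 0.0965 in bone marrow, neither past the test (adjusted p = 0.396 for Dut by DESeq2), in the authors' deposited tables.

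The sensors that these enzymes shield were read in the same way. Of 21 listed genes of endosomal nucleic acid sensing in each tissue, none passed, with medians of 0.02 in spleen and -0.10 in bone marrow. In bone marrow 5 were lower at an unadjusted p under 0.05 in the authors' deposited table. The smallest p was that of Irak4, a kinase below Toll-like receptors, at -0.33 ± 0.0946 (adjusted p = 0.0790 by DESeq2). In spleen none had an unadjusted p under 0.05. The smallest there was that of Irf5, a transcription factor of that pathway, at 0.11 ± 0.0777 (unadjusted p = 0.148 by DESeq2). Of 16 genes of cytosolic RNA and DNA sensing, none passed in spleen and 3 passed lower in bone marrow, with medians of 0.10 and -0.28. These were Oas2, Oas1a (-1.13 ± 0.252) and Oas3 in the authors' deposited table, which are also on the interferon-stimulated list. Oas1a has close paralogs that make its count uncertain. Zbp1, a sensor of Z-form nucleic acids, had the smallest p of both the cytosolic and the interferon-stimulated list in spleen but did not pass, at 0.39 ± 0.151 in the authors' deposited table. Of 58 interferon-stimulated genes in spleen, 47 were above 0 and none passed, with a median of 0.09, and before adjustment 3 were higher and 1 lower at a p under 0.05.

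**Figure D4:**
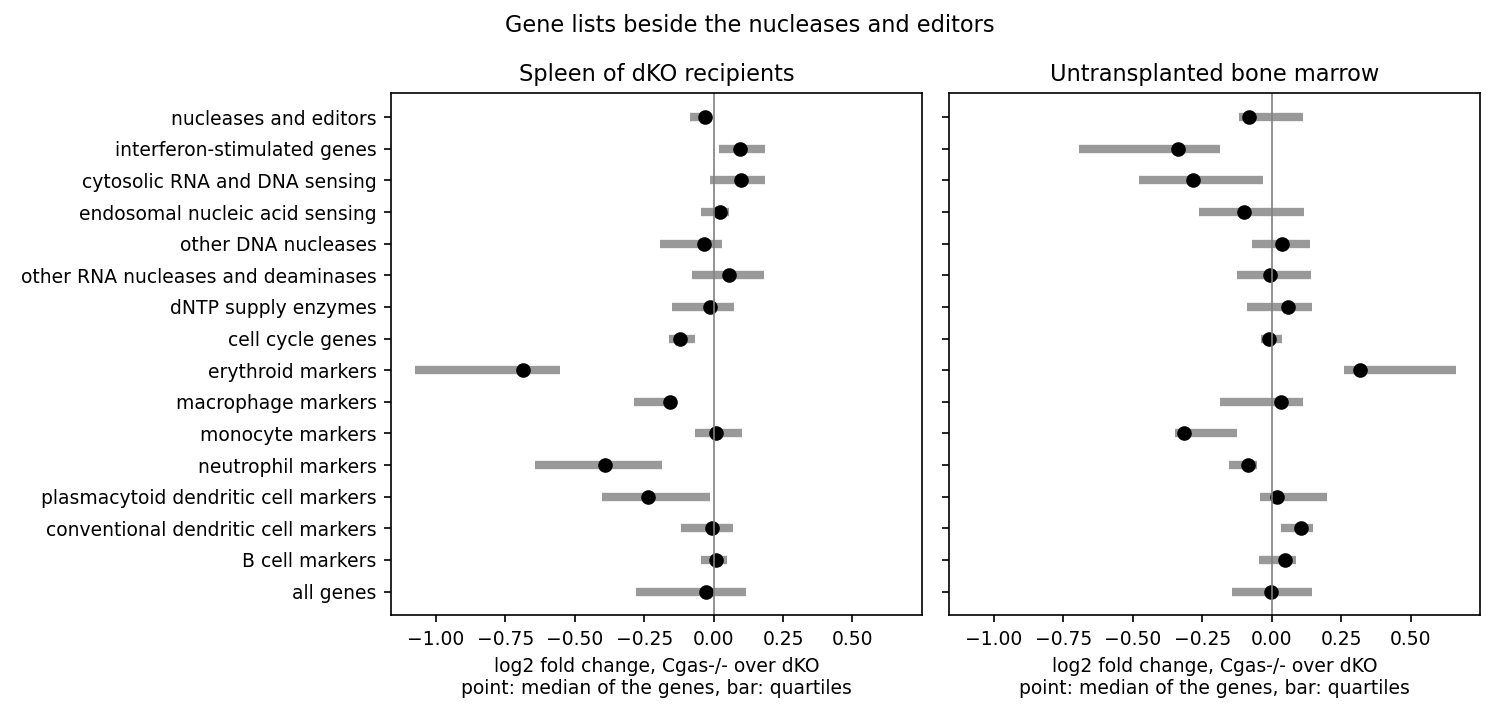
Median (point) and quartiles (bar) of the log2 fold changes of the genes of each list, spleen on the left and bone marrow on the right. The nucleases and editors lie near 0 in both tissues, while erythroid markers have a median of -0.69 in spleen and 0.32 in bone marrow and interferon-stimulated genes one of -0.34 in bone marrow.

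The positions of the genes bear on how tags could be assigned. On GRCm38, with GENCODE M21, the 9 genes lie on 7 chromosomes and none on chromosome 9, where Trex1 and Cgas lie. Dnase2a (chromosome 8, 84908560 to 84922915, plus strand) and Rnaseh2a (84956610 to 84969767, minus strand) are neighbours, 33.7 kb apart. Samhd1 lies on chromosome 2 at 157097533 to 157135265, Adar on chromosome 3 at 89715022 to 89753446 and Rnaseh2b on chromosome 14 at 62292589 to 62372992. Samhd1, Dnase1l3, Pld3 and Pld4 overlap no other annotated gene. Exons of the other 5 overlap those of a gene on the opposite strand, and which strand was counted is not given in the labels. Rnaseh2a also shares exon sequence with Gm49661, a protein-coding gene on its own strand (84967678 to 84969433) that neither table lists, and strand would not separate tags of that pair.

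For 4 of these 5 genes the partner had a low listed mean. Chrnb2, Kat5 and Mast1 have their 3' ends within the gene they overlap. The 3' ends of Adar, Rnaseh2c and Dnase2a in turn lie within these partners. Whether the overlap itself altered the counts of the partners, or of Adar, Rnaseh2c and Dnase2a, was not tested. In the authors' deposited tables Chrnb2, opposite Adar, had means of 21.2 in spleen and 27.9 in bone marrow, and Kat5, opposite Rnaseh2c, 1.51 and 10.4. Dleu7, opposite Rnaseh2b, had a mean of 1.01 and Mast1, opposite Dnase2a, one of 1.79 in spleen, and neither is listed for bone marrow. Prdx2, a peroxiredoxin gene abundant in red cells, overlaps from 84969587 the 5' end of the GENCODE model of Rnaseh2a, which reaches beyond the RefSeq promoter window printed above, and had means of 729 and 1295, with log2 fold changes of -0.26 in spleen and 0.17 in bone marrow in the authors' deposited tables, neither past the test. Its signs are those of Rnaseh2a, whose 3' end lies at the far side of the gene. Prdx2, on the plus strand, ends at 84974834, so its own 3' end lies outside Rnaseh2a. A share of Prdx2 tags in the Rnaseh2a values was not tested.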

How the data were processed

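The 18 libraries were made with the SPLIT RNA kit and QuantSeq forward chemistry, per the labels' protocols, and each was placed in its group by its title. From the submitters' processing notes come bcl2fastq 1.8.4, STAR 2.6.1, the Partek software, DESeq2 and build mm10. The tool, annotation, strand and gene filter used for counting are not given in the labels. The data were the table of DESeq2 results that the authors deposited for each tissue. Its mean normalized count is a signal: the authors divided counts by size factors and averaged them within a tissue, as the column is defined per the file headers. Its log2 fold change, with a standard error, was estimated by the authors. The Wald score is the deposited log2 fold change over its standard error. The deposited p-value follows from that score by the normal distribution, and the adjusted p-value from a Benjamini-Hochberg adjustment over the table; both were checked by recomputation. No counts per library were used, and library depths are therefore unknown.

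An implied mean is the group mean that follows from the mean normalized count and the fold change with equal group sizes. Intervals are 95% normal intervals. Fold changes were compared between tissues over 13853 genes, 77 of them matched by an older symbol, with a normal p adjusted by Benjamini-Hochberg, a step tested on simulated data. The tables were normalized separately, so levels were compared only within a table. The 9 genes and the 18 gene lists were chosen with earlier results of these data known. The rule for named genes took the 9 genes, Trex1 and Cgas, up to 2 genes past the threshold of each list and tissue, the gene with the smallest p of each pathway list without one, and genes overlapping the 9. Other genes named, the tissue markers Ms4a1, Cd3e, Mpo and Elane and the third member Oas3, were chosen after their values were seen. In all, 8 motifs were looked for in promoters. Calculations used Python 3.11.15, pandas 2.3.3, numpy 2.4.6, scipy 1.17.1, statsmodels 0.14.6 and matplotlib 3.10.9. Alternatives were the set of genes adjusted over, the distribution of the Wald statistic and the centring of the fold changes on the median of genes with a mean of at least 20.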

Additional observations from a re-analysis of the deposited data

Results flagged for a closer look

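The fold change of Trex1 differed between the tissues by a test of the difference itself, spleen minus bone marrow, at 1.26 ± 0.267 on the log2 scale (adjusted p = 0.00434, normal test over 13853 genes), with 2.71 in spleen and 1.45 in bone marrow in the authors' deposited tables. With Student's t on 14 degrees of freedom the difference did not pass (adjusted p = 0.632), and over the other settings its adjusted p was 0.00315 to 0.00508. None of the 9 nucleases and editors was singled out by such a test.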

How the results depend on the processing

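All 30 results on the 9 genes (their fold changes in each tissue, the differences between tissues and the 3 counts of genes past the threshold) kept their direction and their side of the threshold under the 110 recomputations. Some adjusted p-values over genes with a mean of at least 20 or over genes listed in both tables. Others used Student's t in place of the normal distribution, or centred the fold changes on their median. Only centring alters a fold change, so direction was fixed in advance in the other settings. Centring moved Samhd1 from -0.0156 to -0.0212 in spleen and from -0.158 to -0.156 in bone marrow. Student's t only raises p, to 0.0590 from 0.0200 for Samhd1 in bone marrow before adjustment, so it brings no gene past the threshold. The 110 outcomes are therefore not separate evidence that the values are firm. The smallest adjusted p of any of the 9 was 0.370, that of Samhd1 in bone marrow over genes with a mean of at least 20. With Student's t, on 8 degrees of freedom in spleen, 6 in bone marrow and 14 for the difference between tissues, the calls over all genes numbered 11 in place of 29 in spleen, 1 in place of 77 in bone marrow and 2 in place of 8 for the difference between tissues. At an unadjusted p under 0.05 the tables list 660 genes in spleen and 1276 in bone marrow. No paired analysis was possible because the tables hold no values per library, and for the same reason no library was left out. Dnase1l3 in bone marrow had the lowest mean normalized count, 27.6, and the largest standard error, 0.430, against 0.194 from counting alone if normalized counts are taken as reads.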
